A study of Mus musculus with 4 samples.

Results

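The imprinted growth genes Igf2, H19, Dlk1, Meg3, Rian, Peg3, Plagl1, Mest, Grb10 and Igf2r were examined in mouse sarcomas. They were taken by name, for their known place in imprinted control of growth, and are 10 of the 56691 genes in the count table. The choice was made with earlier results of these data known. All 10 passed the filter on low counts and are among the 17188 genes tested. RNA-seq was performed on 4 sarcomas of W/+ mice, which carry a germline mutation in 1 allele of p53 that the labels write as p53R282W/+ by the human residue. The comparison was of 2 sarcomas against 2: the ATO group came from mice given arsenic trioxide (ATO, a compound tested for rescue of mutant p53) in the drinking water, and the Ctl group came from mice whose treatment is labelled PBS. Both groups have the same genotype, the mutation is in every cell of the mouse, and neither the sarcoma subtype nor the age of the mouse is given per sample. All 4 sets of labels further hold a cell culture protocol (dexamethasone, isobutylmethylxanthine, then insulin) that is not part of the study's account of the tumors.

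Imprinted genes are transcribed mostly from 1 parental allele, in at least some tissues, mainly under control of DNA methylation set in the germ line. Several of them act on fetal growth, are expressed together in embryonic muscle, bone and other mesenchyme, and are turned down after birth. Igf2 encodes a growth factor that signals through the IGF1 and insulin receptors, Igf2r encodes the receptor that carries this factor to the lysosome, and Grb10 encodes an adaptor that inhibits the insulin and IGF1 receptors. Igf2, Dlk1, Peg3, Plagl1 and Mest are read from the paternal allele, and H19, Meg3, Rian, Grb10 (outside neurons) and Igf2r from the maternal allele. The counts do not separate the alleles, so no value here is a measure of imprinting itself.

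The promoters of Mest, Grb10, Plagl1, Meg3 and Rian are shown because these are the members whose levels did not overlap between the groups. Each window runs from 250 bases before to 50 bases after a start site of RefSeq (GRCm38.p6), read 5′ to 3′ on the strand of the gene, and capitals mark the CG pairs at which DNA can be methylated. RefSeq windows matched 9 of the members, and where a gene had several windows the one with the most CG pairs was taken. The windows are chr6:30737800-30738099 (plus strand) for Mest, chr11:12037371-12037670 (minus strand) for Grb10, chr10:13090582-13090881 (plus strand) for Plagl1, chr12:109540746-109541045 (plus strand) for Meg3 and chr12:109603695-109603994 (plus strand) for Rian.
Mest: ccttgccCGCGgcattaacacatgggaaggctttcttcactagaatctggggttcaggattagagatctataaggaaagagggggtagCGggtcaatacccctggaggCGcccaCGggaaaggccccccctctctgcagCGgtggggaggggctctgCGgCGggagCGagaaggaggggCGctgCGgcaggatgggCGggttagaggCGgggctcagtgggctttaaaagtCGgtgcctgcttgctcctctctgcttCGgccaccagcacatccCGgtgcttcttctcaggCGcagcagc
Grb10: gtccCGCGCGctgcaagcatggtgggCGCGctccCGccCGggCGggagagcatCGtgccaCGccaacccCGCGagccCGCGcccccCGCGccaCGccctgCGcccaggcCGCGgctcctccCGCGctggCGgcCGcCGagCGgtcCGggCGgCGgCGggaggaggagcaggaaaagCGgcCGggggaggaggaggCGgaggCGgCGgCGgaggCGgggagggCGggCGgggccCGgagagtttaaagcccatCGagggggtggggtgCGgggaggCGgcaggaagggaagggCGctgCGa
Plagl1: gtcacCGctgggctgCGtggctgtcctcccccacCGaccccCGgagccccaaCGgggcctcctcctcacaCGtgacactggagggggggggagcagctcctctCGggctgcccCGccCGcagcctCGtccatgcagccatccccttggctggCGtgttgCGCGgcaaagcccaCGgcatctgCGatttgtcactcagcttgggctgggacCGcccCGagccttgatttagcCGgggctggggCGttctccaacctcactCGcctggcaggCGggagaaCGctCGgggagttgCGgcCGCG
Meg3: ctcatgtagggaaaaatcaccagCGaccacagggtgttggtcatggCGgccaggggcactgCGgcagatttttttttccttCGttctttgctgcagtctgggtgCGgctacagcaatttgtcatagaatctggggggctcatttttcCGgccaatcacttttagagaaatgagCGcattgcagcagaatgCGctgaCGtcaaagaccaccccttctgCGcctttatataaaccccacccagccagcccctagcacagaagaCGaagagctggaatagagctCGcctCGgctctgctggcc
Rian: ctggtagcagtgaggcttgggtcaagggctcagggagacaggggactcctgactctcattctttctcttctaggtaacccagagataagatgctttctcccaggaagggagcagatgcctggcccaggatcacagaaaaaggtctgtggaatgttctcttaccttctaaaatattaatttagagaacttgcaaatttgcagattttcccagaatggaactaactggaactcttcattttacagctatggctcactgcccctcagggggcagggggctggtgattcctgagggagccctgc

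The Grb10 window held 45 CG pairs, the Plagl1 window 26, the Mest window 17 and the Meg3 window 13, against a median of 7 over all 32851 promoter windows of this length. The Rian window held 0 CG pairs, and Rian lies downstream of Meg3 on the same strand. The letters TGCCGC, the hexamer to which the imprint-keeping protein ZFP57 binds when its CG is methylated, were searched on both strands and overlap the CG pairs counted above. They occurred 2 times in the Mest window and 1 time each in the Grb10, Plagl1 and Meg3 windows. They could not occur in the Rian window, which has 0 CG pairs. Over all promoter windows 11.6% held these letters, and 5 of the 9 matched members had it in at least 1 window. That share was not matched for the number of CG pairs, on which a match depends. By window this was 6 of 16, of which 2 Mest windows start 3 bases apart and hold nearly the same sequence. Taking the richest window raises the CG counts above over that median: the other Meg3 window held 1 CG pair, the other Grb10 window 9 and the distant Mest window 8. The windows were taken around start sites and not as imprinting control regions. Methylation and ZFP57 binding were not measured in these sarcomas.

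Of the small RNAs hosted by the members, miR-335 lies in an intron of Mest and miR-675 in an exon of H19. Their 5p strands are shown with the seed, bases 2 to 8, in capitals, because Mest had the largest log2 fold change of the members in size, and H19 the highest FPKM of any member in a single sarcoma, ATO 1.
mmu-miR-335-5p: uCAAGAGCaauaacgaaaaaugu
mmu-miR-675-5p: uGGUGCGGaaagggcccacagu

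The gene entry of the miR-335 precursor had 3 and 4 counts in Ctl 1 and Ctl 2 and 0 counts in both ATO sarcomas, and that of miR-675 had 0 counts in all 4. The labels name TRIzol extraction and a SMARTER kit for mRNA, where the study's methods name a spin column and a TruSeq kit. Such libraries do not measure mature small RNAs. The 2 seeds differ.

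Total counts ranged from 15259695 to 18134000 per sarcoma. A count of 0 allows up to 3 counts, which was between 0.165 and 0.197 CPM (counts scaled to the same total), and covers counting error only. The mitochondrial share of the counts was 14.7% in ATO 2 and at most 2.59% elsewhere. With edgeR's quasi-likelihood test and Benjamini-Hochberg adjustment, 0 of the 17188 genes tested (0%) passed an adjusted p of 0.05, and 1463 genes (8.51%) had an unadjusted p under 0.05. Nothing in the labels says that sarcomas of a group came from separate mice, so p-values measure only the spread between these samples. An exact permutation test of 2 sarcomas against 2 cannot give a two-sided p under 0.333.

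Tissue markers also differed between the sarcomas. The summed FPKM (counts scaled to exon length and library total) of 9 skeletal muscle markers was 7.74 and 133 in the Ctl sarcomas and 15317 and 1077 in ATO 1 and ATO 2, and that of 6 adipocyte markers was 12.7, 67.0, 233 and 1384 in the same order. All 9 muscle markers and all 6 adipocyte markers were higher in both ATO sarcomas than in either Ctl sarcoma, and Lep was at 0 counts in both Ctl sarcomas. The adipocyte marker Adipoq was at 0.08 FPKM in both Ctl sarcomas and at 38.9 and 191 FPKM in ATO 1 and ATO 2. The 7 endothelial markers overlapped between the groups, with a summed FPKM of 114 to 994 in Ctl and 85.4 to 166 in ATO sarcomas, and so did the 5 erythroid markers, with 298 to 19827 in Ctl and 1127 to 10913 in ATO sarcomas. Of 7 osteoblast markers 3 lay above, with sums of 577 and 112 FPKM in Ctl and 2335 and 875 FPKM in ATO sarcomas. Most of each sum was Spp1, which other cell types also express, at 564, 105, 1847 and 870 FPKM in Ctl 1, Ctl 2, ATO 1 and ATO 2. The bone matrix gene Ibsp was at 291 FPKM in ATO 1 and at most 0.35 FPKM in the other sarcomas, and Bglap at 58.5 FPKM and at most 0.93 FPKM. The cartilage collagen Col2a1 was also highest in ATO 1, at 21.3 FPKM against at most 0.25 FPKM. Acan and Comp of the chondrocyte list were highest in ATO 1 too. Sox9 and Matn3 of that list were highest in Ctl 1, with Sox9 at 5.25, 4.43, 1.84 and 0.97 FPKM in Ctl 1, Ctl 2, ATO 1 and ATO 2. Over the lists, chondrocyte, leukocyte, epithelial and hepatocyte markers mostly overlapped, and hepatocyte markers summed to at most 0.96 FPKM. Since each sample is bulk tumor, fewer cells of a type and less RNA per cell cannot be told apart in any value below. The part of these tissues in the levels of the imprinted genes was not tested.

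**Figure D1:**
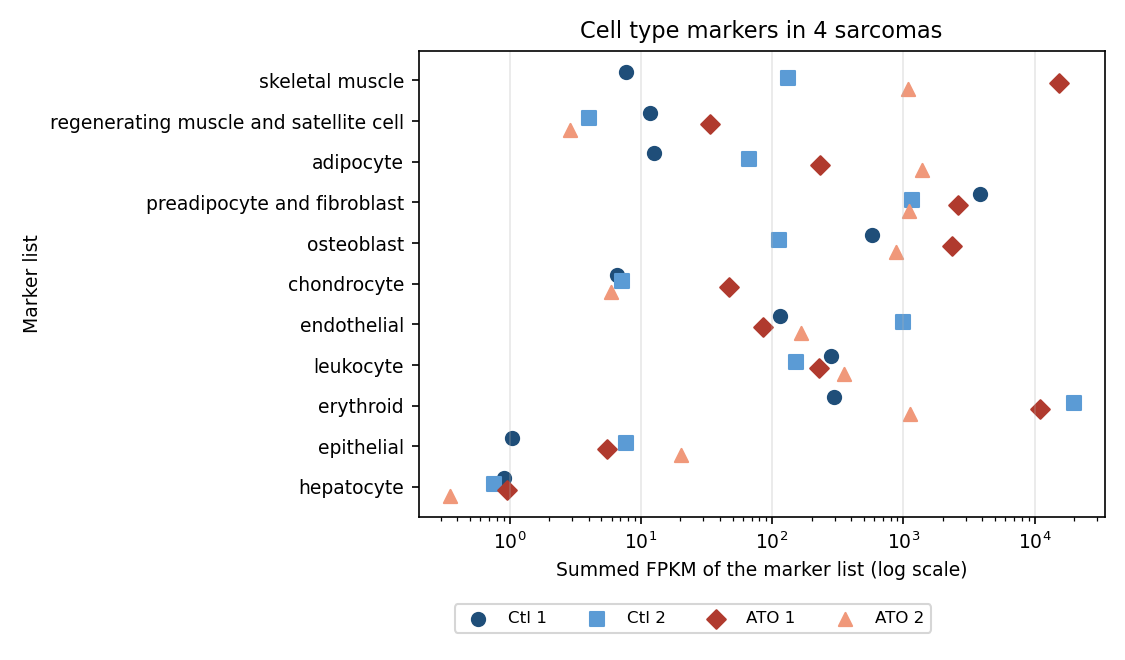
Summed FPKM on a log axis of 11 lists of cell type markers in the 4 sarcomas, 1 symbol per sarcoma. Muscle and adipocyte sums were higher in both ATO sarcomas, with muscle at 15317 in ATO 1 and adipocyte at 1384 in ATO 2.

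Of the 10 imprinted growth genes, Meg3, Rian, Mest and Grb10 were lower in both ATO sarcomas than in either Ctl sarcoma, and Plagl1 was higher in both. The groups overlapped for Igf2, H19, Dlk1, Peg3 and Igf2r. Here and in the lists that follow, above, below and overlap are by TMM-normalized CPM. On that scale the overlap of H19 rests on a near tie between Ctl 1 and ATO 2. Thus 4 members lay below and 1 above, where 20.2% of all genes tested lay below and 19.7% above without overlap. The members had 0 calls at an adjusted p of 0.05 in edgeR, the same as all genes, and 5 of the 10 had an unadjusted p under 0.05 (8.51% of all genes). These shares describe the members only, which were chosen by name, with earlier results of these data known, and not at random. The fitted log2 fold change was above 0 for 3 members and below 0 for 7, with a median of -1.12 beside -0.016 over all genes tested. Of the 5 paternally expressed members 1 lay above, 1 below and 3 overlapped, and of the 5 maternally expressed members 3 lay below and 2 overlapped. Meg3 and Rian, both among the members below, lie in the same cluster and had the most alike profiles of any pair of members. The counts of members below are therefore not counts of separate loci.

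With DESeq2, which called 716 genes (4.17%), Meg3, Mest and Grb10 passed, with adjusted p of 0.0337, 1.6e-05 and 0.031. With edgeR without a filter on low counts, which called 541 of 30859 genes (1.75%), Mest was the 1 member that passed, with an adjusted p of 0.00472.

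**Figure D2:**
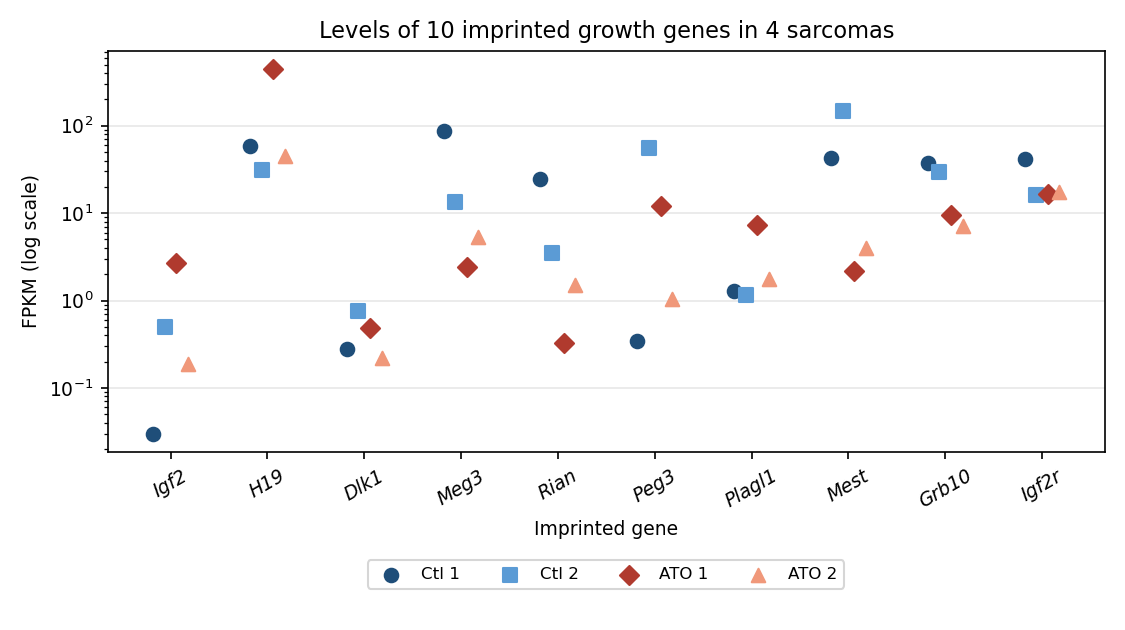
FPKM of the 10 imprinted growth genes on a log axis, 1 symbol per sarcoma. Mest, Grb10, Meg3 and Rian sit lower in both ATO sarcomas and Plagl1 higher, while Peg3 in the Ctl sarcomas runs from 0.34 to 55.5.

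Mest (ENSMUSG00000051855, chromosome 6, 30723547 to 30748465, plus strand) encodes a membrane enzyme of the alpha/beta hydrolase family that marks mesoderm and growing fat tissue. Its level was 43.2 and 148 FPKM in Ctl 1 and Ctl 2, and 2.17 and 4.02 FPKM in ATO 1 and ATO 2. Both ATO sarcomas were thus well under both Ctl sarcomas, and every Ctl to ATO pair differed by between 8.08 and 61.9 times in TMM-normalized CPM. Within a group the sarcomas differed by 3.36 times (Ctl) and 2.28 times (ATO). The mean TMM-normalized CPM was 342 ± 262 (SD, n = 2) in Ctl and 14 ± 7.69 (SD, n = 2) in ATO sarcomas, a ratio of 24.5. The log2 fold change was -4.62 with an SE of 0.91 (edgeR adjusted p = 0.570, unadjusted p = 0.00453), and its size was at the 97.7th percentile of all genes tested. It was -3.49 without Ctl 2 and -5.31 without ATO 2.

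Copg2, a coat protein gene that converges on Mest from the opposite strand, shares 912 exonic bases with it in the annotation, and no source says whether reads were counted by strand. Copg2 was at 7.93 and 10.7 FPKM in the Ctl sarcomas and at 5.86 and 4.82 FPKM in the ATO sarcomas. It was therefore also lower in both ATO sarcomas, with a log2 fold change of -0.53 and an SE of 0.39 (edgeR adjusted p = 0.731). The ratio of Copg2 to Mest counts was 0.238 and 0.0944 in the Ctl sarcomas and 3.51 and 1.56 in the ATO sarcomas, so that Mest was the larger of the pair in Ctl and the smaller in ATO sarcomas.

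Grb10 (ENSMUSG00000020176, chromosome 11, 11930508 to 12038683, minus strand), the inhibitory adaptor, was the member with the least spread inside the groups. Its level was 37.3 and 29.7 FPKM in Ctl 1 and Ctl 2 and 9.57 and 7.04 FPKM in ATO 1 and ATO 2. The Ctl sarcomas were within 1.27 times of each other and the ATO sarcomas within 1.11 times in TMM-normalized CPM, and the Ctl to ATO pairs differed by between 2.82 and 3.98 times. The log2 fold change was -1.75 with an SE of 0.42 (edgeR adjusted p = 0.570, unadjusted p = 0.0103). Leaving out any 1 sarcoma gave values between -1.92 and -1.57. Cobl, an actin nucleator beside Grb10 in the same imprinted cluster, had its levels in the opposite order, at 0.02 and 0.10 FPKM in Ctl and 1.71 and 0.35 FPKM in ATO sarcomas (log2 fold change 4.23, SE 1.23, edgeR adjusted p = 0.570).

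Igf2r (ENSMUSG00000023830, chromosome 17, 12682406 to 12769664, minus strand), the clearance receptor for IGF2, was at 41.1 FPKM in Ctl 1 and at 16.1, 16.4 and 17.4 FPKM in Ctl 2, ATO 1 and ATO 2. One Ctl sarcoma was thus high and the other 3 were close together, and the groups overlapped. For Igf2r the log2 fold change was -0.48 with an SE of 0.61 (edgeR adjusted p = 0.854), and without Ctl 1 it was 0.37. Airn, the paternal antisense RNA that silences Igf2r on that allele, had counts at 0.0663 of those of Igf2r in each Ctl sarcoma and at 0.0816 and 0.0361 in ATO 1 and ATO 2. Airn shares no exonic bases with Igf2r. Slc22a3, an organic cation transporter of the same cluster, was at 0 and 0.07 FPKM in Ctl and 1.01 and 3.88 FPKM in ATO sarcomas, without overlap (log2 fold change 6.34, SE 1.75, edgeR adjusted p = 0.570).

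H19 and Igf2 are neighbours on distal chromosome 7, share enhancers, and are expressed from opposite alleles. H19 (ENSMUSG00000000031, 142575529 to 142578143, minus strand), a long noncoding RNA, was at 59.3 and 31.3 FPKM in Ctl 1 and Ctl 2 and at 446 and 44.5 FPKM in ATO 1 and ATO 2. ATO 1 stood apart from the other 3, and by FPKM ATO 2 lay between the Ctl sarcomas. In TMM-normalized CPM Ctl 1 and ATO 2 were both at 143, so the overlap of H19 rests on a near tie. The log2 fold change was 2.59 with an SE of 1.13 (edgeR adjusted p = 0.601), and without ATO 1 it was 0.38.

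Igf2 (ENSMUSG00000048583, 142650766 to 142666816, minus strand) was the least abundant member in Ctl 1. It was at 0.03 FPKM (3 counts) in Ctl 1 and 0.50 FPKM in Ctl 2, and at 2.68 and 0.19 FPKM in ATO 1 and ATO 2. As with H19 the highest value was in ATO 1, but Ctl 2 was above ATO 2, so the groups overlapped. For Igf2 the log2 fold change was 2.60 with an SE of 1.71 (edgeR adjusted p = 0.701), and it was -0.01 without ATO 1. Igf2 shares 3596 exonic bases with Gm49394 on the same strand, which had 0 counts in all 4 sarcomas. How reads in bases shared by 2 genes were counted is not given, so the level of Igf2 and its place below H19, Igf1 and the other members are uncertain. Per length of exon, H19 was the more abundant of the pair in all 4 sarcomas, and the ratio of Igf2 to H19 counts ran from 0.0011 in Ctl 1 to 0.0346 in Ctl 2.

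Nctc1, a noncoding RNA transcribed at a muscle enhancer downstream of H19, was also highest in ATO 1. Its level was 0.07 and 0.21 FPKM in the Ctl sarcomas, 20.3 FPKM in ATO 1 and 0.78 FPKM in ATO 2, and its groups did not overlap (log2 fold change 6.37, SE 1.78, edgeR adjusted p = 0.570). ATO 1 was also the sarcoma with the highest skeletal muscle sum, 15317 FPKM, beside 1077 FPKM in ATO 2 and at most 133 FPKM in the Ctl sarcomas. The sum of 10 markers of regenerating muscle and satellite cells was 11.7 and 4.04 FPKM in the Ctl sarcomas and 33.7 and 2.89 FPKM in ATO 1 and ATO 2, of which Ncam1 and Chrna1, genes that other cells also express, gave all in Ctl 1 (9.72 and 1.98 FPKM). The satellite cell factor Pax7 had 0 counts in both Ctl sarcomas and 11 and 2 counts in ATO 1 and ATO 2. The bone marker Ibsp (291 FPKM) and the cartilage marker Col2a1 (21.3 FPKM) were highest in ATO 1 as well. The cartilage markers Sox9 and Matn3 were highest in Ctl 1. The part of muscle, bone and cartilage in the H19, Igf2 and Nctc1 values was not tested.

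Plagl1 (ENSMUSG00000019817, chromosome 10, 13060504 to 13131694, plus strand) encodes a zinc finger transcription factor that is known to act on H19, Igf2, Dlk1 and other imprinted genes. It was at 1.27 and 1.16 FPKM in Ctl 1 and Ctl 2, 7.26 FPKM in ATO 1 and 1.75 FPKM in ATO 2. Both ATO sarcomas were above both Ctl sarcomas, and the Ctl sarcomas were within 1.11 times of each other in TMM-normalized CPM. The mean TMM-normalized CPM was 8.66 ± 0.627 (SD, n = 2) in Ctl and 36.6 ± 28.1 (SD, n = 2) in ATO sarcomas, a ratio of 4.23. For Plagl1 the log2 fold change was 2.08 with an SE of 0.71 (edgeR adjusted p = 0.570, unadjusted p = 0.0352), and without ATO 1 it was 0.93. Like H19, Igf2 and Nctc1, Plagl1 was highest in ATO 1. The skeletal muscle markers and the bone and cartilage markers Ibsp, Bglap and Col2a1 were also highest in that sarcoma. The cartilage markers Sox9 and Matn3 were instead highest in Ctl 1. The part of these tissues in the Plagl1 values was not tested.

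The cluster on chromosome 12 holds the protein genes Dlk1 and Rtl1, expressed from the paternal allele, and a run of noncoding RNAs, Meg3, Rian and Mirg, expressed from the maternal allele. Meg3 (ENSMUSG00000021268, 109541001 to 109571726, plus strand) was at 86.1 and 13.5 FPKM in Ctl 1 and Ctl 2, and at 2.44 and 5.38 FPKM in ATO 1 and ATO 2. Both Ctl sarcomas were above both ATO sarcomas, and Ctl 1 stood 6.48 times over Ctl 2 in TMM-normalized CPM, which is more than the 1.85 times between Ctl 2 and ATO 2. Meg3 had a log2 fold change of -3.34 with an SE of 1.16 (edgeR adjusted p = 0.570, unadjusted p = 0.0372), and it was -1.44 without Ctl 1. In the annotation Meg3 shares 1228 exonic bases with Gm26906 on the opposite strand, which has no value here.

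Rian (ENSMUSG00000097451, 109603940 to 109661716, plus strand), which hosts a large array of small nucleolar RNAs, had the same order. It was at 24.7 and 3.51 FPKM in the Ctl sarcomas and at 0.33 and 1.52 FPKM in ATO 1 and ATO 2. Its log2 fold change was -3.56 with an SE of 1.35 (edgeR adjusted p = 0.585, unadjusted p = 0.0496), and it was -1.54 without Ctl 1. Mirg, the host of the miRNA cluster downstream of Rian, was at 5.46 and 0.89 FPKM in Ctl and at 0.14 and 0.27 FPKM in ATO sarcomas, again without overlap (log2 fold change -3.65, SE 1.14, edgeR adjusted p = 0.570).

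The RNAs of the maternal allele kept similar proportions in most sarcomas while their levels differed widely. The ratio of Mirg to Meg3 counts was 0.0242, 0.0253, 0.0213 and 0.0191 in Ctl 1, Ctl 2, ATO 1 and ATO 2, while Meg3 itself spanned from 46.4 to 1507 TMM-normalized CPM. The ratio of Rian to Meg3 counts was 0.481, 0.437 and 0.474 in Ctl 1, Ctl 2 and ATO 2 and was lower, 0.230, in ATO 1. These ratios come from 1 library each, rest on 18 Mirg counts in ATO 1, and have no test. Meg3 and Rian were the most alike pair of members over the 4 sarcomas, with a root mean square difference of 0.402 between their centred log2(CPM + 1) profiles.

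Of the paternal genes of the cluster, Rtl1, a retrotransposon-derived gene needed in the placenta, had 246 counts in Ctl 1 against 16, 8 and 8 counts in Ctl 2, ATO 1 and ATO 2 (log2 fold change -3.66, SE 1.49, edgeR adjusted p = 0.592). Whether reads were counted by strand is not given, so the Rtl1 counts cannot be told apart from RNA of the opposite, maternally expressed strand. Dlk1 (ENSMUSG00000040856, 109452823 to 109463336, plus strand), a membrane ligand related to the Notch ligands that marks preadipocytes and holds back fat cell differentiation, was at 0.28, 0.76, 0.49 and 0.22 FPKM in Ctl 1, Ctl 2, ATO 1 and ATO 2. All 4 values were under 1 FPKM, and by FPKM the order alternated between the groups. By TMM-normalized CPM both ATO sarcomas (2.75 and 1.52) lay between the Ctl sarcomas (1.47 and 3.88). Dlk1 had a log2 fold change of -0.32 with an SE of 0.83 (edgeR adjusted p = 0.937), which was 0.54 without Ctl 2. The profile of Dlk1 was thus not that of its neighbour, with a root mean square difference of 2.02 from Meg3. Markers of preadipocytes and fibroblasts summed to 3833 and 1169 FPKM in the Ctl sarcomas and to 2626 and 1098 FPKM in ATO 1 and ATO 2. The largest part was Col1a1 in Ctl 1 and ATO 1 (2276 and 2413 FPKM), Ly6a in Ctl 2 (481 FPKM) and Col3a1 in ATO 2 (365 FPKM). By contrast Pdgfra was at 96.2, 5.84, 26.5 and 11.7 FPKM in Ctl 1, Ctl 2, ATO 1 and ATO 2. Dpp4 was at 0.26, 1.13, 1.27 and 2.49 FPKM in the same order. Of these 10 markers 1 lay above, 2 below and 7 overlapped.

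Peg3 (ENSMUSG00000002265, proximal chromosome 7, 6703892 to 6730431, minus strand), a large zinc finger protein, had the widest range of the members between sarcomas of 1 group. It was at 0.34 and 55.5 FPKM in Ctl 1 and Ctl 2, and at 12.1 and 1.05 FPKM in ATO 1 and ATO 2. The ATO sarcomas lay between the Ctl sarcomas, which differed by 163 times in TMM-normalized CPM. For Peg3 the log2 fold change was -1.92 with an SE of 2.17 (edgeR adjusted p = 0.832), and its sign turned, to 4.43, without Ctl 2.

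The neighbours of Peg3, which were singled out after their values were seen, were also at their lowest in Ctl 1. Usp29, which shares the paternal promoter of Peg3, was at 0, 1.10, 0.07 and 0.01 FPKM in Ctl 1, Ctl 2, ATO 1 and ATO 2, and so was highest where Peg3 was highest. Zim1, a maternally expressed zinc finger gene, was at 0.04, 3.10, 5.10 and 0.15 FPKM in the same order, and its highest value was in ATO 1. Ctl 2 was also the sarcoma with the highest endothelial sum (994 FPKM) and erythroid sum (19827 FPKM), and their part in the Peg3 values was not tested.

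**Figure D3:**
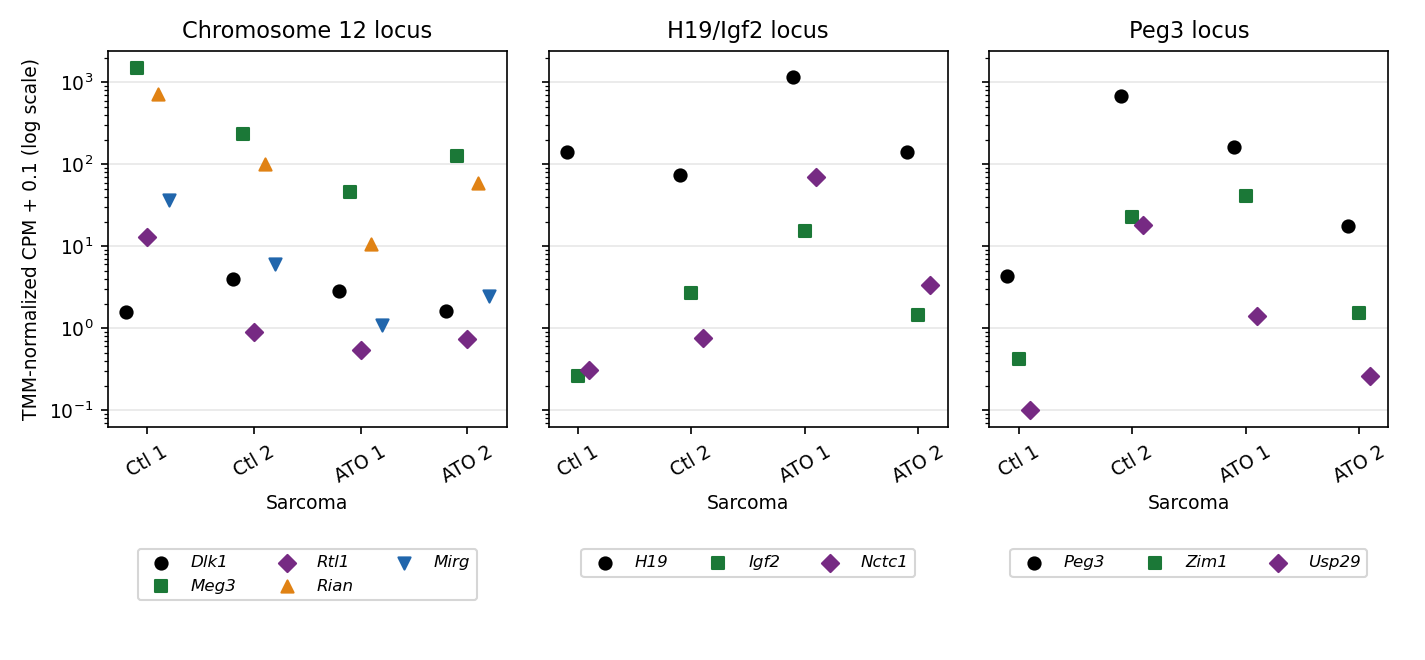
TMM-normalized CPM plus 0.1 on a log axis for the genes of 3 imprinted clusters in each sarcoma, 1 symbol per gene and no order implied among the sarcomas. Mirg keeps its spacing from Meg3 while Rian is closer to Meg3 in Ctl 1, Ctl 2 and ATO 2 than in ATO 1, Dlk1 stays between 1.47 and 3.88 CPM, and Peg3 runs from 4.21 to 685 CPM in the Ctl sarcomas.

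By FPKM the order of the members differed between the sarcomas. In Ctl 1 the most abundant member was Meg3 at 86.1 FPKM, followed by H19 at 59.3 and Mest at 43.2 FPKM. In Ctl 2 it was Mest at 148 FPKM, followed by Peg3 at 55.5 FPKM. H19 led in both ATO sarcomas, at 446 FPKM in ATO 1 and 44.5 FPKM in ATO 2, followed in each by Igf2r at 16.4 and 17.4 FPKM. Igf2 and Dlk1 were the 2 least abundant members in Ctl 1, Ctl 2 and ATO 2, where neither passed 1 FPKM. In ATO 1 the lowest were Rian at 0.33 FPKM and Dlk1 at 0.49 FPKM. Each order comes from 1 library and has no error of its own.

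**Figure D4:**
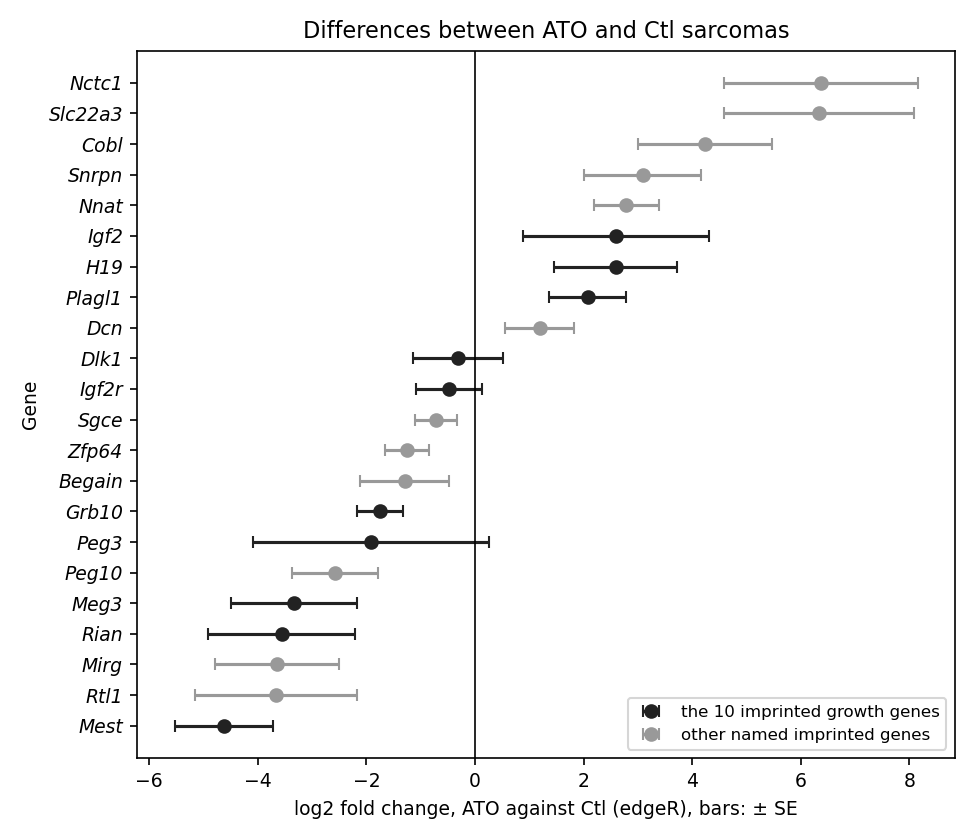
Fitted log2 fold change of ATO against Ctl sarcomas (edgeR), with bars of ± 1 SE, for the 10 imprinted growth genes (black) and the other imprinted genes named by rule (grey). Mest is lowest at -4.62, Grb10 has the shortest bar of the 10 with an SE of 0.42, and 0 of the genes shown passed an adjusted p of 0.05.

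Of 19 other imprinted genes in the clusters of the members, 16 were tested, 4 lay above, 4 below and 8 overlapped, 8 had a log2 fold change above 0 and 8 below, and 0 passed the adjusted threshold. The median was 0.01. Over all genes tested 19.7% lay above and 20.2% below. Besides Nctc1, Slc22a3, Cobl, Rtl1 and Mirg, Begain, a synaptic scaffold gene beside Dlk1, was at 2.15 and 0.91 FPKM in Ctl and 0.36 and 0.65 FPKM in ATO sarcomas (log2 fold change -1.29, SE 0.82, edgeR adjusted p = 0.698). Cdkn1c, the imprinted cell cycle inhibitor and a growth limiter, was not among the genes named by rule and was looked at after its values were seen. It was at 155 FPKM in Ctl 1 and at 6.41, 27.8 and 13.1 FPKM in Ctl 2, ATO 1 and ATO 2, so its high value was in the same sarcoma as those of Meg3, Rian and Igf2r.

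Imprinted genes of other loci numbered 29, of which 23 were tested, with 6 above, 4 below, 13 overlapping and a median log2 fold change of 0.28. Nnat, a proteolipid of developing brain and fat, was at 1.57 and 1.95 FPKM in Ctl and 14.3 and 6.52 FPKM in ATO sarcomas (log2 fold change 2.79, SE 0.59, edgeR adjusted p = 0.570). Snrpn, a splicing protein, was at 0.50 and 0.62 FPKM in Ctl and at 1.25 and 6.16 FPKM in ATO sarcomas. Both were thus higher in both ATO sarcomas, Nnat most in ATO 1 and Snrpn most in ATO 2. Peg10, a retrotransposon-derived gene of the placenta, was at 9.01 and 10.9 FPKM in Ctl and at 2.46 and 0.47 FPKM in ATO sarcomas (log2 fold change -2.58, SE 0.79, edgeR adjusted p = 0.570), and its neighbour Sgce, a sarcoglycan, was at 5.93 and 4.98 FPKM and at 3.26 and 2.29 FPKM. Dcn, a matrix proteoglycan, was higher and Zfp64, a zinc finger gene, lower in both ATO sarcomas, with log2 fold changes of 1.19 (SE 0.64) and -1.25 (SE 0.40) and edgeR adjusted p of 0.656 and 0.570. The imprinted genes therefore lay on both sides, as did all genes tested, of which 19.7% lay above and 20.2% below. Of the imprinted genes 0 passed.

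Of 18 further genes of the IGF pathway, 16 were tested, of which 3 lay above, 5 below and 8 overlapped, with a median log2 fold change of 0.12 and 0 past the adjusted threshold. Among the ligands and receptors, which were looked at after their values were seen, Igf1 was at 7.95 and 4.84 FPKM in Ctl and 5.75 and 11.9 FPKM in ATO sarcomas, and Igf1r at 3.32 and 5.38 FPKM and at 5.38 and 2.31 FPKM. Both overlapped between the groups, and in each sarcoma Igf1 was above Igf2 per length of exon. Insr, the insulin receptor, was at 4.82 and 6.37 FPKM in Ctl and at 13 and 6.87 FPKM in ATO sarcomas, without overlap (log2 fold change 1.07, SE 0.43, edgeR adjusted p = 0.592). Irs2, an adaptor of these receptors, did not overlap by TMM-normalized CPM but did by FPKM.

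Among the binding proteins, Igfbp3, the main carrier of IGFs in blood, was at 159 and 1046 FPKM in Ctl and at 105 and 27.2 FPKM in ATO sarcomas (log2 fold change -2.99, SE 1.21, edgeR adjusted p = 0.592). Igfals, the third subunit of that carrier complex, had 0 counts in both Ctl sarcomas and 40 and 35 counts in ATO 1 and ATO 2, at least 31.7-fold higher against a limit of 3 counts over the Ctl group. Of the 3 RNA-binding proteins of the family that acts on Igf2 mRNA, Igf2bp2 and Igf2bp3 were lower in both ATO than in either Ctl sarcoma, while Igf2bp1, which did not pass the filter, was at 0.02 and 0.06 FPKM in Ctl and at 1.34 and 0.04 FPKM in ATO sarcomas. Igf2bp2 was at 11.7 and 8.66 FPKM in Ctl and 0.21 and 0.91 FPKM in ATO sarcomas (log2 fold change -3.82, SE 0.93, edgeR adjusted p = 0.570), and Igf2bp3 was at 0.13 and 0.70 FPKM and at 0.08 and 0.07 FPKM.

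The Notch receptors and ligands related to Dlk1 mostly overlapped. Of 13 genes tested, 12 overlapped and 1 lay below by TMM-normalized CPM (20.2% below over all genes). The log2 fold change was below 0 for 11, the median was -0.81, and 0 passed the adjusted threshold. Hes1, a transcriptional target of Notch, was the 1 gene without overlap on that scale, at 11.3 and 21.1 FPKM in Ctl and 10.4 and 5.24 FPKM in ATO sarcomas (log2 fold change -0.81, SE 0.53, edgeR adjusted p = 0.701). Its lack of overlap rests on a near tie, at 21.2 TMM-normalized CPM in Ctl 1 and 21.1 in ATO 1. By FPKM, which is not TMM-normalized, Notch1, Notch4 and Dll4 also lay below.

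Of 12 genes listed as imprint regulators, all tested, 1 lay above, 6 below and 5 overlapped (19.7% above and 20.2% below over all genes). In this list 10 had a log2 fold change below 0, and the median was -0.88, with 0 past the adjusted threshold. The list is broader than genes that set or keep imprints. It also holds Tet1, Tet2, Tet3 and Plag1, of which Tet1 and Plag1 lay below. Zfp57, the zinc finger protein that binds methylated TGCCGC in imprinting control regions, was at 8.38 and 20.0 FPKM in Ctl and at 2.53 and 2.09 FPKM in ATO sarcomas (log2 fold change -2.34, SE 0.57, edgeR adjusted p = 0.570). Its partner Trim28 was at 46.8 and 46.2 FPKM in Ctl and at 25.9 and 16.9 FPKM in ATO sarcomas (log2 fold change -0.87, SE 0.39, edgeR adjusted p = 0.606). For the RNA of both genes each Ctl sarcoma was above each ATO sarcoma, and the proteins were not measured. Dnmt1, the maintenance methyltransferase, was at 23.6 and 11.2 FPKM and at 9.52 and 5.87 FPKM, and Dnmt3b, a de novo methyltransferase, at 1.96 and 2.71 FPKM and at 1.47 and 0.41 FPKM. Tet1, which oxidises methylated cytosine, and Plag1, a relative of Plagl1, had log2 fold changes of -0.89 (SE 0.66) and -1.25 (SE 0.68), with edgeR adjusted p of 0.734 and 0.657.

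The genes most like 4 of the members over the sarcomas were taken from the 10047 tested genes with a range of at least 1 in log2(CPM + 1), by the root mean square difference of the centred profiles. With 4 sarcomas a close profile is a description of these libraries and has no test. For H19 they were Prkag3, a subunit of AMP-activated kinase found in skeletal muscle, with 0.084, Eya4, a transcriptional coactivator, with 0.093, and Nexn, an actin-binding protein of striated muscle, with 0.164. For Igf2 they were the potassium channel Kcnk1 with 0.081, the interferon-inducible Ifi213 with 0.109 and the microtubule-binding Mid2 with 0.192. For Meg3 they were Iglon5, a cell adhesion protein, with 0.166, Ndst3, a heparan sulfate enzyme, with 0.219, and Ror2, a Wnt5a receptor, with 0.222. For Dlk1, whose range was small, they were Gm10384, Akap13, a kinase anchor, and Gm17017, with 0.040, 0.042 and 0.051. Among the members themselves H19 and Plagl1 were the closest pair after Meg3 and Rian, with 0.562, and Rian and Peg3 the most distant with 4.32.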

How the data were processed

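RNA-seq of 4 sarcomas was analysed, grouped by the treatment in their labels. Per the labels and the study's methods, the authors trimmed reads with cutadapt 1.9.1 (quality checked with FastQC 0.10.1), aligned them with HISAT2 2.0.1 and made gene counts with HTSeq. The authors deposited raw counts and FPKM in 1 table, and FPKM recomputed from the count, exonic length and total count differed from the deposited FPKM by at most 0.005. Whether counting used strand is not given in the sources used here. Of 52073 genes shared with GENCODE M21 (GRCm38), 1472 had the same position in the table, so members were placed by identifier in GENCODE M21, and promoter and miRNA sequences from RefSeq (GRCm38.p6).

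Counts were filtered with filterByExpr, scaled by TMM (factors 1.09, 1.11, 1.01 and 0.822 for Ctl 1, Ctl 2, ATO 1 and ATO 2) and tested with edgeR 4.0.16 in R 4.3.3 (quasi-likelihood, trended dispersion, Benjamini-Hochberg over all genes, threshold 0.05). The biological coefficient of variation was 62.5%. The alternatives tried were edgeR without a filter, DESeq2 1.42.0, edgeR with DESeq2 size factors, limma 3.58.1 on log2 FPKM with pseudocounts of 1 and 0.1 or a mean FPKM of at least 1, a replicate block, no mitochondrial genes, and each sarcoma left out.

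The members and gene lists were chosen with earlier results of these data known. Named beside the members were, per list, at most 6 genes without overlap between groups and with a mean CPM of at least 1, by size of change, and the 3 genes most like Igf2, H19, Dlk1 and Meg3. Tables and figures were made with Python 3.11.15, pandas 2.3.3, numpy 2.4.6 and matplotlib 3.10.9.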

Additional observations from a re-analysis of the deposited data

How the results depend on the processing

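The count of genes past an adjusted p of 0.05 was 0 in edgeR and 716 with DESeq2 (559 higher, 157 lower), 541 with edgeR without a filter (454 higher, 87 lower), and 0 under the other 10 alternatives. The unadjusted count was 1463 in edgeR and 2157 with DESeq2. The median log2 fold change of the members, -1.12, was -0.67 and -0.50 with limma on log2(FPKM + 1) and log2(FPKM + 0.1), which also moved the median of all genes from -0.02 to -0.18 and -0.27. The replicate block gave a median of -0.28, with 0 genes called, 1165 at an unadjusted p under 0.05 and no change of direction of a member. Nothing says that equal numbers pair the sarcomas, and deviations of same-numbered sarcomas had a correlation of 0 over genes. Leaving out 1 sarcoma each moved that median between -1.34 and -0.24 and the number of members with a log2 fold change above 0 between 2 and 5. It reversed Igf2r (range -1.01 to 0.37, reversed without Ctl 1), Dlk1 (-0.85 to 0.54, reversed without Ctl 2 and without ATO 2, at 0.05), Peg3 (-4.31 to 4.43, reversed without Ctl 2) and Igf2 (-0.01 to 5.66, reversed without ATO 1). In these fits the lone sarcoma of a group is assumed to vary like the other group. Grb10, H19, Meg3, Mest, Plagl1 and Rian kept their direction under the 12 alternatives. With a mean FPKM of at least 1, Igf2 and Dlk1 were not tested. Depth limits Igf2, with 3, 51, 278 and 17 counts in Ctl 1, Ctl 2, ATO 1 and ATO 2. It also limits Dlk1, with 28, 77, 50 and 19 counts in the same order. Having 2 sarcomas per group limits all members.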
